A study of Mus musculus with 24 samples.

Results

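Glycolysis splits glucose into pyruvate in the cytosol, and cells either turn the pyruvate into lactate, which they export, or send it into mitochondria through pyruvate dehydrogenase. Many genes of this route are known targets of the transcription factor HIF1A, a protein that the oxygen-sensing prolyl hydroxylases of the EGLN family mark for degradation, and MTOR complex 1 is known to favour HIF1A synthesis. AMPK, the energy-sensing kinase, is known to promote glucose uptake and catabolism. Transcript levels of 34 genes of this route were examined in mouse embryonic fibroblasts (MEFs), the collagen-making cells that grow out when embryo tissue is put in culture. The 34 genes were taken by name from a table of 55487 genes, and all 34 were among the 15828 genes with enough counts to be tested. They comprise 4 genes of glucose uptake and phosphorylation and 9 from aldolase to pyruvate kinase. Another 8 are listed with the phosphofructokinase step and its regulators, among them Gpi1, which acts before that step. The rest are 4 of lactate formation and export, 5 for pyruvate dehydrogenase and its kinases, and 4 of oxygen sensing.

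The cells were wild-type (WT) or AMPK knockout (AMPK KO) MEFs, the latter described in the study's methods as lacking both catalytic subunits, PRKAA1 and PRKAA2. Cells of either genotype received DMSO as vehicle, the direct AMPK activator MK-8722, or torin1, which inhibits the kinase MTOR. Each of the 6 groups held 4 libraries of mRNA, 24 in all. The doses and times of treatment for these libraries were not used here. The libraries came from passages 12 to 15 for WT and passages 16 to 19 for AMPK KO, 1 library of each passage in a group, so genotype and passage cannot be told apart. The methods describe experiments in general as repeated independently but do not tie the 4 libraries of a group to separate cultures, so p-values measure the spread between these libraries, which may in part be technical.

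Total estimated counts per library lay between 26900240 and 34192684, and RNA integrity numbers between 9.7 and 10. Prkaa1 was at 71.3 to 84.5 CPM in the libraries labelled WT and at 65.6 to 82.5 CPM in those labelled AMPK KO, so transcripts of the targeted genes persisted and do not check the genotype labels. The populations differed in another respect, since Xist, the RNA that coats the inactive X chromosome of female cells, was at 281 to 511 CPM in WT and at most at 0.0903 CPM in AMPK KO. Of 10 fibroblast markers, Vim and Fn1 were abundant in every library, while Dcn and Lum never exceeded 0.331 CPM. Thy1 was low too, at 0.12 to 2.28 CPM, as was Pdgfra at 0.133 to 6.49 CPM, while Pdgfrb was at 40.6 to 119 CPM. The collagen genes varied widely between libraries, with Col1a1 at 319 to 4840, Col1a2 at 10.2 to 3290 and Col3a1 at 4.85 to 183 CPM. The summed level of the 10 markers was 11100 to 17100 CPM in WT and 4770 to 6830 CPM in AMPK KO. Lists of epithelial, endothelial and leukocyte markers summed to at most 8.68 CPM. Levels in CPM, which compare libraries for 1 gene, are scaled for depth with TMM factors. TPM, which are scaled for transcript length too, were used to compare levels between genes.

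Isoenzymes of several families were expressed at very unequal levels, such as Aldoa over Aldoc and Ldha over Ldhb, as the plot of TPM by group shows. The Pfkfb genes were closer to each other, at 17.9% to 36.4% of their summed TPM in WT with DMSO. Averaged over all libraries, 3 of the 34 genes lay above 1000 TPM, 7 between 100 and 1000, 13 between 10 and 100, and 11 below 10. Gapdh, which oxidises glyceraldehyde 3-phosphate, was the most abundant, with 4533 ± 246 TPM (SD, n = 4) in WT with DMSO, followed by the pyruvate kinase gene Pkm with 2019 ± 166 TPM (SD, n = 4) and the enolase gene Eno1 with 1406 ± 103 TPM (SD, n = 4). Together, the 34 genes held 1.26% of all TPM in WT with DMSO and 1.31% in AMPK KO with DMSO, and 1.02% in each genotype with torin1. In WT, the summed level was 11584 to 13269 TPM with DMSO and 9839 to 10885 TPM with torin1, and in AMPK KO it was 12614 to 13549 and 9770 to 10692 TPM, so the libraries did not overlap in either genotype. With MK-8722 it overlapped with DMSO in both genotypes, at 11426 to 12399 TPM in WT. The AMPK KO libraries with MK-8722 held 12526 to 13224 TPM.

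**Figure D1:**
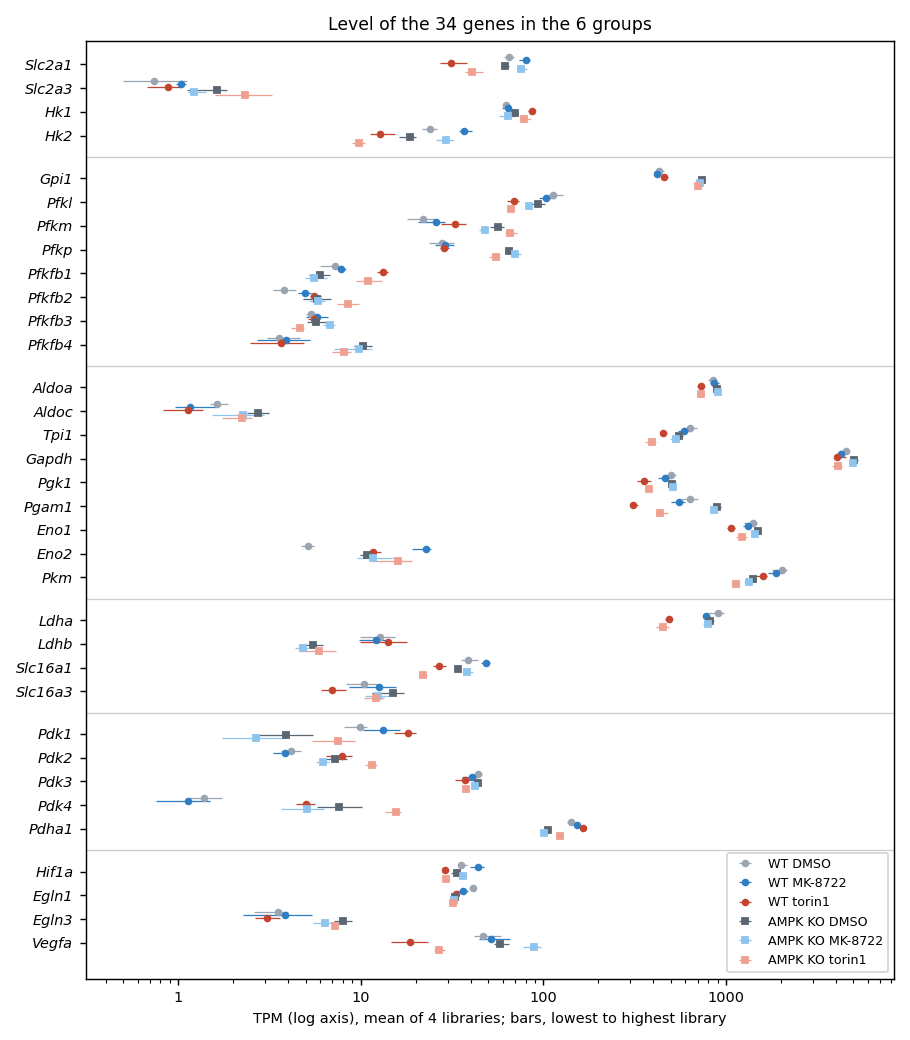
Level of each of the 34 genes in TPM on a log axis, ordered by step of the route, with grey lines between steps. Points are means of 4 libraries for each of the 6 groups and bars run from the lowest to the highest library. Gapdh, Pkm and Eno1 lie above 1000 TPM, and Slc2a3, Aldoc and Pdk4 are among the lowest.

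Since several of the genes fell with torin1, promoters are shown of those with the larger falls in both genotypes, for the letters ACGTG, the core of the hypoxia response element that HIF1A binds, its variant GCGTG, and the E-box CACGTG, which MYC and TFEB family factors bind. Slc2a1, Hk2, Pgam1, Ldha and Vegfa were chosen because their log2 fold change with torin1 was -0.7 or lower in both genotypes, and Eno2 because it had the largest rise with MK-8722 in WT. Each line holds the 250 bases before the most upstream start site in RefSeq (build GRCm38.p6), on the gene's own strand, in lower case with matches to the 3 motifs on either strand in capitals. The windows are chr4:119108495-119108744 for Slc2a1 (plus strand), chr6:82774455-82774704 for Hk2 (minus strand), chr19:41911621-41911870 for Pgam1 (plus strand), chr7:46845554-46845803 for Ldha (plus strand), chr17:46032378-46032627 for Vegfa (minus strand) and chr6:124769674-124769923 for Eno2 (minus strand).
Slc2a1: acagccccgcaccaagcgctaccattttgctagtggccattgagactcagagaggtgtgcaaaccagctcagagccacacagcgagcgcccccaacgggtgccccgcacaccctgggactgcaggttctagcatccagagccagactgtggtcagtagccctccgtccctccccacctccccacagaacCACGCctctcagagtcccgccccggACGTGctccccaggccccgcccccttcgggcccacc
Hk2: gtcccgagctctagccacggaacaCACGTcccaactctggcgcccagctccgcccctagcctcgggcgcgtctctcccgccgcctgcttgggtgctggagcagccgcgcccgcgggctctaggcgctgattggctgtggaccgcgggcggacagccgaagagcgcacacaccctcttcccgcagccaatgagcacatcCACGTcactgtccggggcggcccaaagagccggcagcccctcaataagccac
Pgam1: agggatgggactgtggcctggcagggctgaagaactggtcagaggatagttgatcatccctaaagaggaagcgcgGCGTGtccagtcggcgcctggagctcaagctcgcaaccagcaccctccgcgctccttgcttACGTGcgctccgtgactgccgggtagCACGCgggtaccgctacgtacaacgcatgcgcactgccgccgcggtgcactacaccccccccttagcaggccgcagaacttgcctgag
Ldha: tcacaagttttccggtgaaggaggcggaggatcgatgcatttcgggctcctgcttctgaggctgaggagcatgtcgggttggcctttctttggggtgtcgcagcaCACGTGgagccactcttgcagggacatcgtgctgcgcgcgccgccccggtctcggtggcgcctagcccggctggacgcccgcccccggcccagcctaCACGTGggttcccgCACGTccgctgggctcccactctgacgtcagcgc
Vegfa: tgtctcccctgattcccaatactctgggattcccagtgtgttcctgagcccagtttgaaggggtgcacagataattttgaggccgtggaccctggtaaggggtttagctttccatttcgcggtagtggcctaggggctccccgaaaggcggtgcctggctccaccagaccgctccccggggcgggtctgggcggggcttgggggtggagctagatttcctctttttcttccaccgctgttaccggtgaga
Eno2: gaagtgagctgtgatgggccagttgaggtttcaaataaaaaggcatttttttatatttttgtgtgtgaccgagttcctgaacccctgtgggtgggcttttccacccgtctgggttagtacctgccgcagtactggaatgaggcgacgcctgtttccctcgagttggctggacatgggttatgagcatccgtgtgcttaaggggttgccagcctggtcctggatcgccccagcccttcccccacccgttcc

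Slc2a1 held 1 ACGTG, starting 36 bases before the start site, and 1 GCGTG, and Hk2 held 2 ACGTG. Pgam1 held 1 ACGTG and 2 GCGTG. Ldha held 2 E-boxes, 145 and 48 bases before the start site, each of which contains ACGTG on both strands, and 1 further ACGTG. No match lay in these windows of Vegfa and Eno2, which says nothing on sequence elsewhere. RefSeq windows of 300 bases around start sites were held for 33 of the 34 genes, all but Slc2a3. ACGTG on either strand was in 47.2% of their 53 windows and in 19.6% of all 32851 windows, GCGTG in 52.8% and 32.4%, and CACGTG in 13.2% and 7.15%. A gene with more than 1 start site counts more than once in these shares. Many genes of this route are known HIF1A targets, so the choice of genes may itself raise the share with ACGTG. These shares are descriptions of letters and do not show binding.

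Torin1 was compared with DMSO in each genotype, which addresses how inhibition of MTOR changed this route with and without AMPK. Most of the genes called were lower in both genotypes. The glucose transporter gene Slc2a1, the hexokinase gene Hk2, the phosphoglycerate mutase gene Pgam1, the lactate dehydrogenase gene Ldha and the angiogenic growth factor gene Vegfa fell by more than 0.7 on the log2 scale in each. The inducible enolase, Eno2, and the pyruvate dehydrogenase kinases Pdk1, Pdk2 and Pdk4 rose. Calls required an edgeR adjusted p below 0.05 together with a change of at least 1.2-fold, and log2 fold changes are given ± SE. In WT, 18 of the 34 genes were lower and 8 higher with torin1, where 47.6% of all genes tested were called, 21.1% lower and 26.6% higher (67.5% of the called genes higher with scaling by library size alone). In AMPK KO, 20 were lower and 6 higher, where 43.5% of all genes tested were called, 17.6% lower and 25.9% higher. Summed levels of some marker lists did not overlap between torin1 and DMSO. The endothelial list summed to 0.878 to 1.39 CPM with DMSO and 2.03 to 3.87 CPM with torin1 in WT, and to 1.59 to 2.1 and 2.25 to 3.07 CPM in AMPK KO. In AMPK KO the fibroblast list summed to 4800 to 5370 CPM with DMSO and 6270 to 6830 CPM with torin1. The epithelial list, of which 3 of 5 genes never exceeded 1 CPM, summed to 3.04 to 4.55 CPM with DMSO and 5.38 to 6.45 CPM with torin1 there. The part of these shifts in the results was not tested. In bulk RNA, fewer cells with a transcript and less of it per cell cannot be told apart. The median log2 fold change of the 34 genes was -0.31 in WT and -0.34 in AMPK KO, beside 0.04 and 0.06 over all genes tested. Of the 34 genes, 17 were lower in both genotypes and 6 were higher in both. Another 6 were called in 1 genotype and not in the other, and 0 were called in opposite directions. The share of all genes tested with such joint calls was not computed, so these counts do not set the 34 genes apart. With scaling by library size alone, Aldoa, Aldoc, Gapdh and Pdk3 were no longer called in WT (-0.37 to -0.16 on the log2 scale), nor Aldoc and Pfkfb4 in AMPK KO (-0.40 and -0.21), while Slc2a3 was called higher in WT (0.50).

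**Figure D2:**
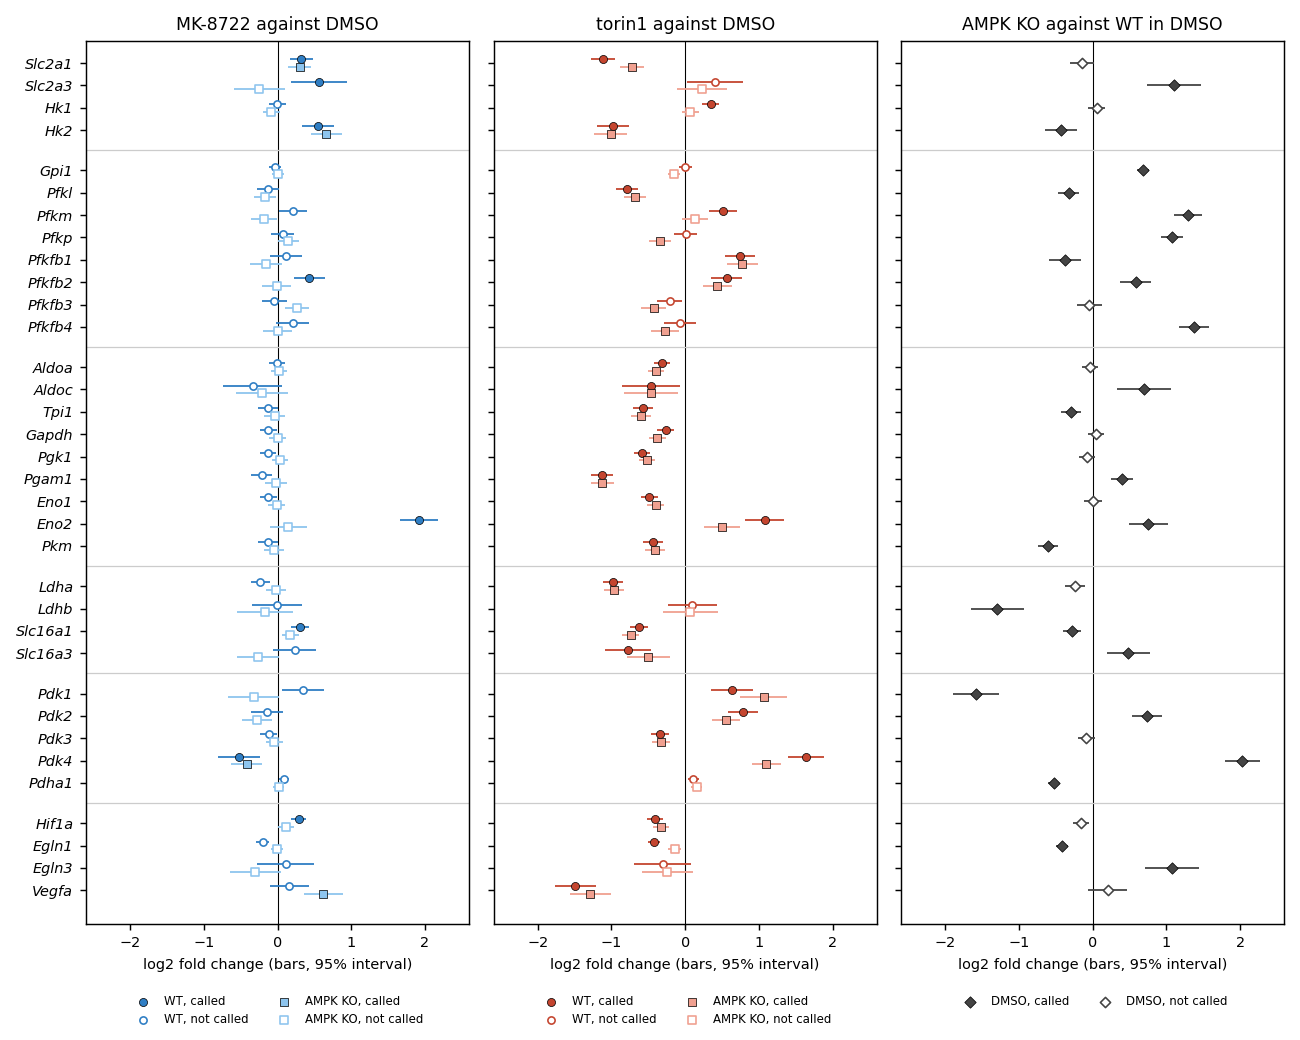
Log2 fold change of each gene with MK-8722 (left) and torin1 (middle) against DMSO, in WT (circles) and AMPK KO (squares), and in AMPK KO against WT with DMSO (right, diamonds). Bars are 95% intervals and filled symbols are called genes. Filled torin1 symbols lie left of 0 except those of Eno2, Pfkfb1, Pfkfb2, Pdk1, Pdk2 and Pdk4, and of Hk1 and Pfkm in WT. The MK-8722 symbols lie between -0.52 and 0.66 except for Eno2 in WT at 1.92.

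Glucose enters fibroblasts mainly through GLUT1, encoded by Slc2a1. Its level was 108, 106, 101 and 103 CPM in WT with DMSO and 46.8, 57.3, 41.5 and 46.9 CPM with torin1, a log2 fold change of -1.12 ± 0.077, edgeR adjusted p = 1.5e-11. The AMPK KO libraries were at 97.2, 97.1, 88.7 and 95.3 CPM with DMSO and 51.9, 65.0, 59.1 and 53.0 CPM with torin1, a log2 fold change of -0.72 ± 0.076, edgeR adjusted p = 2.5e-08. Torin1 libraries were lower than every DMSO library in both genotypes. The fall was smaller in AMPK KO, with a difference between the log2 fold changes of 0.40 ± 0.11, edgeR adjusted p = 0.022, but the edgeR adjusted p of this difference rose above the threshold in 6 of 16 fits that left out 1 library, to 0.15 without AMPK KO torin1 replicate 2. The other transporter, Slc2a3, which encodes GLUT3, held 1.13% ± 0.428 of the TPM of the pair in WT with DMSO and 5.48% ± 2.13 in AMPK KO with torin1 (SD, n = 4 each), and was not called with torin1 in either genotype. In WT, its log2 fold change of 0.40 (edgeR adjusted p = 0.057) was past the threshold without DMSO replicate 1 or torin1 replicate 1 or 4 (adjusted p 0.041, 0.043 and 0.022). Slc2a3 was also called there in a fit with a block by passage.

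Hexokinases trap glucose in the cell as glucose 6-phosphate. Hk2, the inducible isoenzyme, was at 74.0, 67.8, 75.0 and 82.8 CPM in WT with DMSO and 33.4, 33.4, 37.4 and 47.6 CPM with torin1 (log2 fold change -0.98 ± 0.10, edgeR adjusted p = 2.1e-08). It was at 56.6, 58.8, 45.9 and 60.7 CPM in AMPK KO with DMSO and 29.4, 28.0, 25.0 and 27.8 CPM with torin1 (log2 fold change -1.01 ± 0.11, edgeR adjusted p = 2.3e-08). The groups did not overlap in either genotype. Hk1, the constitutive isoenzyme, led uptake and phosphorylation by TPM averaged over all libraries, although Slc2a1 was at a higher mean in WT with DMSO (65.2 against 62.7 TPM) and in both genotypes with MK-8722. Hk1 was at 161, 156, 156 and 150 CPM in WT with DMSO and rose to 199, 198, 202 and 191 CPM with torin1 (log2 fold change 0.34 ± 0.054, edgeR adjusted p = 7.5e-06). The AMPK KO levels were 166, 164, 148 and 169 CPM with DMSO and 157, 168, 181 and 173 CPM with torin1, which did not pass the test (0.07, edgeR adjusted p = 0.29). The responses of Hk1 differed by -0.28 ± 0.077, edgeR adjusted p = 0.024, a call lost without WT DMSO replicate 4, AMPK KO DMSO replicate 1 or AMPK KO torin1 replicate 1 (adjusted p up to 0.054). As a share of hexokinase TPM, Hk2 was at 27.5% ± 1.91 with DMSO and 12.8% ± 2.0 with torin1 in WT, and at 20.9% ± 1.08 and 11.1% ± 1.26 in AMPK KO (SD, n = 4 each).

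At the phosphofructokinase step, which commits sugar to glycolysis, the isoenzymes moved apart. The liver-type gene Pfkl fell, with log2 fold changes of -0.78 in WT and -0.67 in AMPK KO (largest edgeR adjusted p = 2e-08). The muscle-type gene Pfkm was at 41.8, 35.9, 42.2 and 33.0 CPM in WT with DMSO and rose to 60.2, 56.9, 54.3 and 47.2 CPM with torin1 (log2 fold change 0.52 ± 0.088, edgeR adjusted p = 2.2e-05). The AMPK KO levels of Pfkm were 100, 88.1, 88.8 and 97.3 CPM with DMSO and 94.5, 99.5, 113 and 105 CPM with torin1, groups that overlapped and did not pass the test (0.14, edgeR adjusted p = 0.17). The difference between its responses narrowly missed the threshold (-0.38, edgeR adjusted p = 0.05) and was past it in 9 of 16 fits that left out 1 library (adjusted p down to 0.018 without WT torin1 replicate 4). This difference was also called in a fit with a block by passage. The platelet-type gene Pfkp fell in AMPK KO alone, from 95.02, 93.2, 94.1 and 96.4 CPM to 69.96, 74.1, 78.1 and 75.7 CPM (log2 fold change -0.35 ± 0.07, edgeR adjusted p = 0.00019), and was at 40.6, 44.4, 40.0 and 54.2 CPM with DMSO and 42.6, 44.1, 45.6 and 47.5 CPM with torin1 in WT. Its responses differed by -0.35 ± 0.10, edgeR adjusted p = 0.029, a difference no longer called in 4 of 16 fits without 1 library (adjusted p up to 0.069 without WT DMSO replicate 1). Pfkl made up 69.3% ± 2.09 of phosphofructokinase TPM in WT with DMSO and 52.8% ± 1.83 with torin1, and 43.7% ± 1.29 and 35.6% ± 1.81 in AMPK KO (SD, n = 4 each).

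Among the PFKFB enzymes, which make and break down fructose 2,6-bisphosphate, the activator of phosphofructokinase, Pfkfb1 and Pfkfb2 rose with torin1 in both genotypes. The log2 fold changes were 0.74 and 0.78 for Pfkfb1 and 0.56 and 0.44 for Pfkfb2, in WT and AMPK KO (largest edgeR adjusted p = 0.00031). Pfkfb3 and Pfkfb4 fell in AMPK KO, by 0.43 and 0.27 on the log2 scale, and were not called in WT, where the values were -0.21 and -0.07. Pfkfb4 lost the call without AMPK KO torin1 replicate 1, where its log2 fold change was -0.25. These differences between the genotypes did not pass the test (edgeR adjusted p = 0.25 for Pfkfb3 and 0.41 for Pfkfb4). Gpi1, which isomerises glucose 6-phosphate before the phosphofructokinase step, was the most abundant of the genes listed with that step. In WT it was at 379, 351, 375 and 362 CPM with DMSO and 377, 361, 366 and 366 CPM with torin1. These groups overlapped (log2 fold change 0.00, 95% interval -0.08 to 0.09).

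Of the genes from aldolase to pyruvate kinase, 8 of 9 were lower with torin1 and 1 higher in each genotype, with median log2 fold changes of -0.46 in WT and -0.41 in AMPK KO. Pgam1 had the largest fall of these 9 genes. It was at 715, 627, 716 and 611 CPM in WT with DMSO and 295, 321, 296 and 307 CPM with torin1 (log2 fold change -1.13 ± 0.072, edgeR adjusted p = 3.9e-12). In AMPK KO it fell from 932, 912, 781 and 882 CPM to 366, 449, 389 and 406 CPM (log2 fold change -1.12 ± 0.072, edgeR adjusted p = 8.6e-12), with no overlap between the groups in either genotype. The changes in AMPK KO and WT differed by 0.01 on the log2 scale (95% interval of the difference -0.20 to 0.22).

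Falls of Tpi1 (triose phosphate isomerase) and Pgk1 (phosphoglycerate kinase) lay between -0.60 and -0.51 on the log2 scale in the 2 genotypes, and those of Eno1, Pkm and Aldoa between -0.48 and -0.31. Gapdh was at 2977, 2691, 2990 and 2971 CPM in WT with DMSO and 2634, 2363, 2309 and 2370 CPM with torin1, and in AMPK KO at 3201, 2967, 2770 and 3054 CPM with DMSO and 2093, 2466, 2295 and 2382 CPM with torin1. Its log2 fold changes were -0.27 and -0.38 (largest edgeR adjusted p = 0.00019). Gapdh is often used as a reference gene. In WT, the fall of Gapdh was below the fold threshold without torin1 replicate 2 or 3 (-0.26 and -0.22), and that of Aldoa without torin1 replicate 3 (-0.26). Aldoc, a minor aldolase at 1.44, 1.28, 1.8 and 1.16 CPM in WT with DMSO and 0.798, 1.33, 1.06 and 0.895 CPM with torin1, had a log2 fold change of -0.46 ± 0.19, edgeR adjusted p = 0.038. Its groups overlapped, and the call was lost in 5 of 8 fits without 1 library (adjusted p up to 0.15 without DMSO replicate 3) and, in AMPK KO, without DMSO replicate 1 (0.079). Eno1 shares reads with a near-identical gene, Eno1b, to which 70.8% as many counts were assigned, so the split between them is uncertain, although Eno1b fell by a similar amount (log2 fold changes -0.48 and -0.42, edgeR adjusted p = 1.4e-06 and 9.6e-06).

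Eno2, the enolase first known from neurons, went against its neighbours. It was at 6.99, 7.46, 6.09 and 6.34 CPM in WT with DMSO and 13.7, 14.1, 14.5 and 14.4 CPM with torin1 (log2 fold change 1.08 ± 0.12, edgeR adjusted p = 7.1e-08). AMPK KO libraries were at 10.7, 10.4, 12.8 and 11.4 CPM with DMSO and 19.1, 11.9, 17.3 and 15.5 CPM with torin1 (log2 fold change 0.49 ± 0.12, edgeR adjusted p = 0.00089), where the groups overlapped. The rise was smaller in AMPK KO, with a difference of -0.58 ± 0.17, edgeR adjusted p = 0.031, a call lost without WT DMSO replicate 3 or 4 (adjusted p 0.066 and 0.059). Eno2 remained a minor part of the summed TPM of Eno1 and Eno2, at most 1.71% in any group mean. Other enolase genes, Eno1b among them, were left out of this share.

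Ldha, which reduces pyruvate to lactate, fell from 841, 719, 875 and 814 CPM to 409, 422, 387 and 430 CPM in WT (log2 fold change -0.98 ± 0.065, edgeR adjusted p = 7.1e-12). In AMPK KO it fell from 730, 694, 632 and 698 CPM to 314, 398, 346 and 358 CPM (log2 fold change -0.96 ± 0.065, edgeR adjusted p = 1.9e-11), again with no overlap. Ldhb, the other subunit, was at 9.97, 11.1, 8.72 and 7.38 CPM in WT with DMSO and 10.8, 13.0, 9.16 and 6.78 CPM with torin1 and did not pass the test (0.10, 95% interval -0.24 to 0.43). The lactate transporters fell along with Ldha. Slc16a1 (MCT1) had log2 fold changes of -0.63 in WT and -0.74 in AMPK KO, and Slc16a3 (MCT4) of -0.78 and -0.50 (largest edgeR adjusted p = 0.0034).

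**Figure D3:**
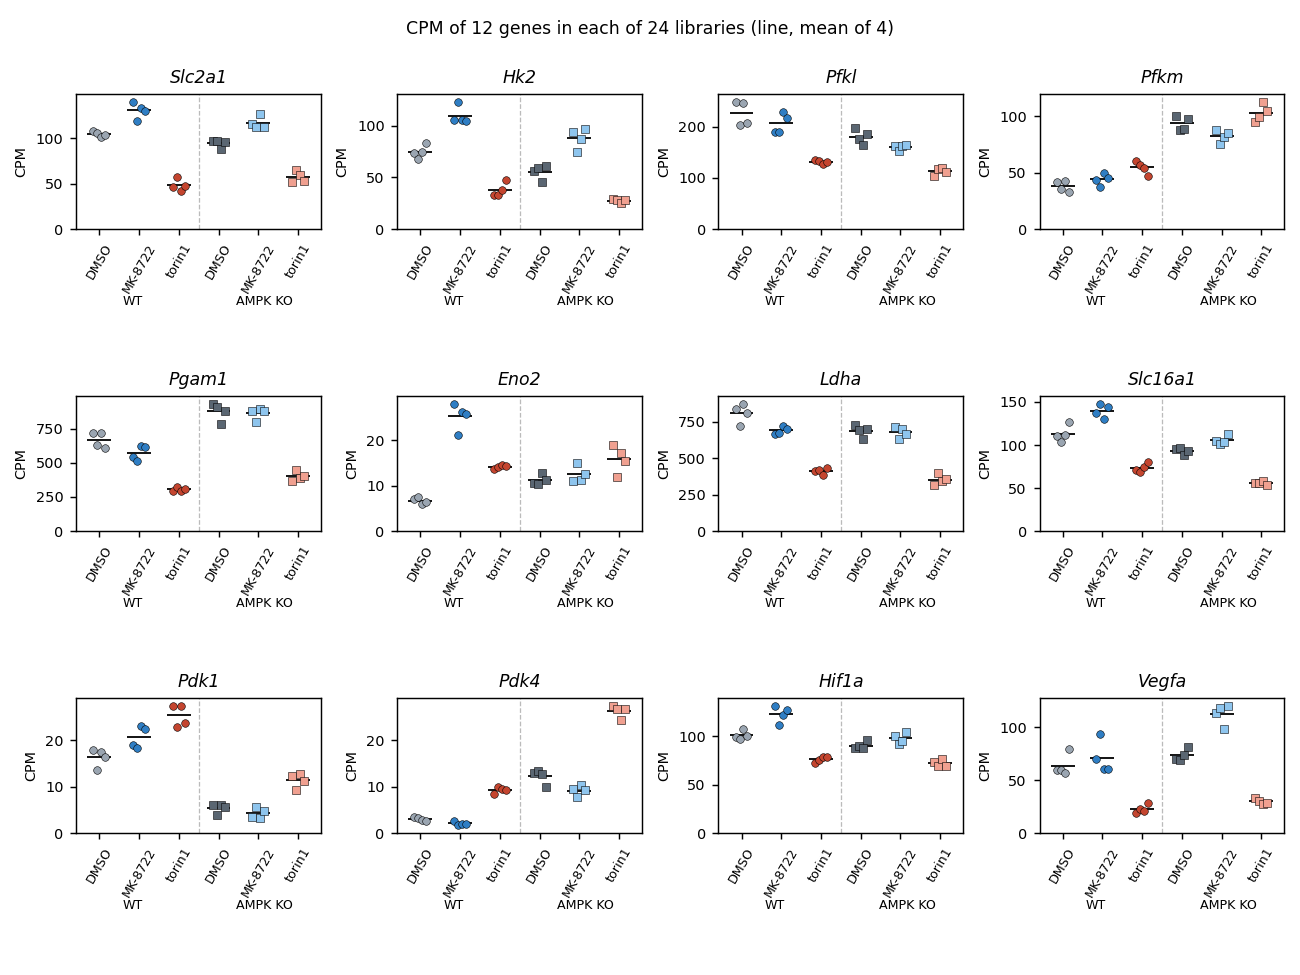
CPM of 12 genes in each of the 24 libraries, with circles for WT, squares for AMPK KO and a line at the mean of 4 libraries. Vertical axes start at 0. Slc2a1, Hk2, Pfkl, Pgam1, Ldha, Slc16a1, Hif1a and Vegfa are lower with torin1 in both genotypes, and Eno2 with MK-8722 lies above DMSO in WT while it overlaps with DMSO in AMPK KO.

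At the entry to mitochondria, kinases that inhibit pyruvate dehydrogenase rose while the most abundant of them fell. Pdk4, known to rise on starvation in many tissues, was at 3.37, 3.18, 2.85 and 2.61 CPM in WT with DMSO and 8.52, 9.96, 9.45 and 9.34 CPM with torin1 (log2 fold change 1.64 ± 0.12, edgeR adjusted p = 2.1e-11). In the AMPK KO cells, it was at 12.9, 13.4, 12.8 and 9.93 CPM with DMSO and 27.4, 26.7, 24.4 and 26.8 CPM with torin1 (log2 fold change 1.10 ± 0.10, edgeR adjusted p = 1.2e-09). All torin1 libraries were higher than all DMSO libraries of their genotype. On the log2 scale, the rise was smaller in AMPK KO, with a difference of -0.53 ± 0.15, edgeR adjusted p = 0.025, a difference no longer called in 4 of 16 fits without 1 library (adjusted p up to 0.066 without WT DMSO replicate 4).

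Pdk1 rose from 17.9, 13.6, 17.6 and 16.3 CPM to 27.4, 23.01, 27.5 and 23.8 CPM in WT (log2 fold change 0.64 ± 0.14, edgeR adjusted p = 0.00026). In AMPK KO it rose from 6.02, 4.01, 6.1 and 5.67 CPM to 12.3, 9.3, 12.8 and 11.3 CPM (log2 fold change 1.06 ± 0.15, edgeR adjusted p = 2e-06). Pdk2 rose by 0.79 and 0.55 on the log2 scale (largest edgeR adjusted p = 1.9e-05), and Pdk3 fell by 0.34 and 0.33 (largest edgeR adjusted p = 2.8e-05). Pdk3 held 73.9% ± 3.07 of the TPM of the 4 kinases in WT with DMSO and 54.5% ± 2.12 with torin1, and 70% ± 0.881 and 52.0% ± 1.69 in AMPK KO (SD, n = 4 each). Pdha1, the catalytic subunit of the dehydrogenase that they phosphorylate, was at 224, 218, 224 and 238 CPM in WT with DMSO and 239, 237, 247 and 252 CPM with torin1, and in AMPK KO at 157, 164, 152 and 155 CPM with DMSO and 170, 176, 171 and 181 CPM with torin1. Its log2 fold changes of 0.11 and 0.15 were below the fold threshold.

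**Figure D4:**
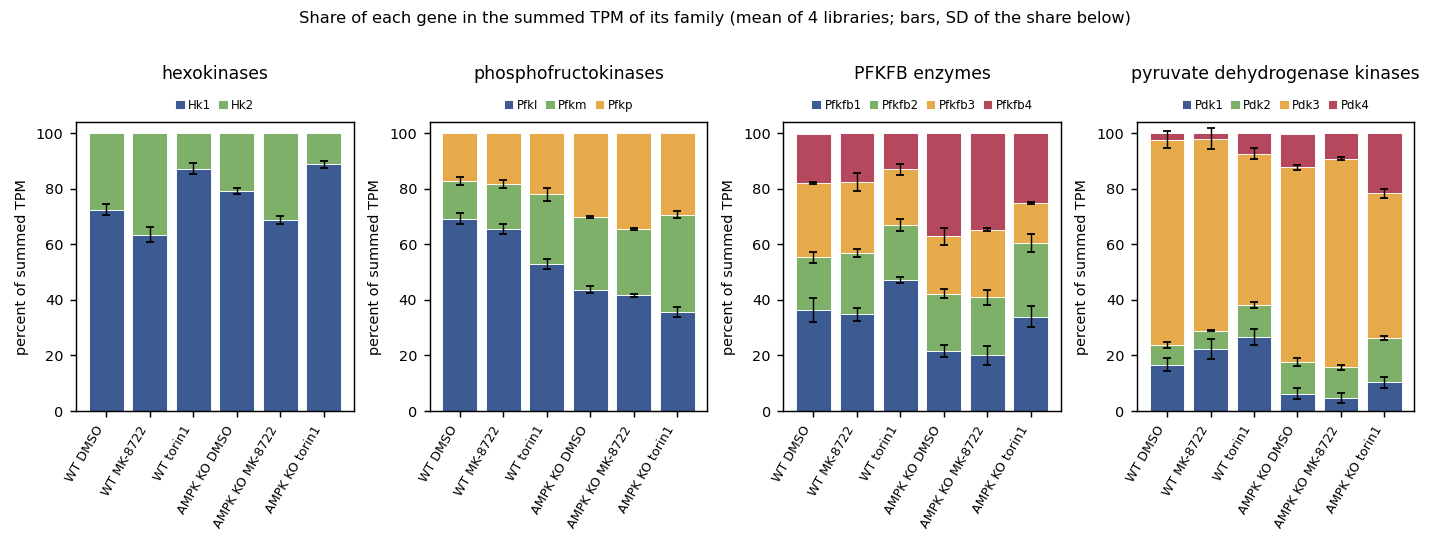
Share of each gene in the summed TPM of its family in the 6 groups, as stacked bars of group means over 4 libraries. The error bar at the top of a segment is the SD of the share of that segment. The uppermost segments, those of Hk2, Pfkp, Pfkfb4 and Pdk4, have no error bar. With torin1, the shares of Hk2, Pfkl and Pdk3 are smaller than with DMSO in both genotypes, and those of Pfkfb1 and Pdk4 larger.

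Of the oxygen-sensing genes, Hif1a fell with torin1 by 0.40 on the log2 scale in WT and by 0.33 in AMPK KO (largest edgeR adjusted p = 8.8e-06). Vegfa, a textbook HIF1A target, was at 59.4, 59.1, 57.0 and 79.3 CPM in WT with DMSO and 18.7, 23.2, 20.5 and 28.4 CPM with torin1 (log2 fold change -1.49 ± 0.14, edgeR adjusted p = 1.5e-09). In AMPK KO it was at 69.7, 68.6, 73.8 and 80.9 CPM with DMSO and 33.3, 30.7, 27.6 and 28.6 CPM with torin1 (log2 fold change -1.29 ± 0.13, edgeR adjusted p = 1.5e-08), with no overlap in either genotype. Egln1, the main prolyl hydroxylase, fell by 0.42 in WT (edgeR adjusted p = 3.4e-09) and by 0.14 in AMPK KO, the latter below the fold threshold. The difference between the responses was 0.27 ± 0.057, edgeR adjusted p = 0.0034, close to the fold threshold, and it fell below it with DESeq2 size factors (0.25), with scaling by library size alone (0.24) and in 9 of 16 fits without 1 library (lowest 0.19, adjusted p 0.055, without WT torin1 replicate 3). Egln3, a hydroxylase gene that HIF induces, was not called with torin1 (log2 fold changes -0.31 and -0.24, edgeR adjusted p = 0.16 and 0.22). In WT, however, it was called without DMSO replicate 4 (-0.45, adjusted p 0.044). Egln3 was also called in WT in a fit with a block by passage.

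In the test of the difference between genotypes, 6 of the 34 genes responded differently to torin1, 2 higher and 4 lower in AMPK KO, where 7.07% of all genes tested were called, 4.15% higher and 2.92% lower. With DESeq2 size factors in place of TMM factors, the split of the members was 1 higher and 5 lower. The larger direction over all genes turned round there, with 48.5% of the called genes higher, and was 42.1% with scaling by library size alone. It turned round as well with DESeq2's test (48.6% higher) and with at least 10 counts in every library (36%). So it did with a minimum fold change of 1.5 (34.4%) and with the compared groups fitted alone (27%). It did not turn round with the blocks by passage (53%) or replicate number (59.8%), or with no filter on low counts (64.8%). Nor did it with the offset for transcript length (61.2%) or adjusted p alone (64.9%). It also turned round without WT torin1 replicate 1 or 3, AMPK KO DMSO replicate 3 or 4, or AMPK KO torin1 replicate 2 or 4, with 26.8% to 29.1% higher. The 6 genes are Slc2a1, Egln1, Hk1, Pfkp, Eno2 and Pdk4, described above, and none of their responses had opposite called directions in the 2 genotypes.

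MK-8722 was compared with DMSO to ask which genes the activator changed in the presence and absence of AMPK. Eno2 had the largest change of the 34 genes with MK-8722, and rose in WT alone. Slc2a1 and Hk2 rose modestly in both genotypes, Pdk4 fell modestly in both, and the genes from aldolase to pyruvate kinase other than Eno2 were not called. In WT, 7 genes were higher and 1 lower, where 15.7% of all genes tested were called, 10% higher and 5.66% lower. In AMPK KO, 3 were higher and 1 lower, where 1.56% of all genes tested were called, 0.866% higher and 0.695% lower. This background rests on 247 genes and is not stable, with 121 genes called without AMPK KO MK-8722 replicate 1, 130 without AMPK KO DMSO replicate 1 and 147 without AMPK KO MK-8722 replicate 4. Under scaling by library size alone, 45.1% of the called genes were higher. Median log2 fold changes of the 34 genes were -0.01 in WT and -0.02 in AMPK KO, beside -0.002 and 0.002 over all genes tested.

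Eno2 was at 28.1, 21.3, 26.3 and 25.9 CPM in WT with MK-8722, and all 4 libraries lay above the DMSO libraries at 6.99, 7.46, 6.09 and 6.34 CPM (log2 fold change 1.92 ± 0.12, edgeR adjusted p = 6e-11). In AMPK KO, Eno2 was at 11.1, 15.0, 11.4 and 12.6 CPM with MK-8722 and 10.7, 10.4, 12.8 and 11.4 CPM with DMSO, groups that overlapped (log2 fold change 0.15, 95% interval -0.10 to 0.40, edgeR adjusted p = 0.6). The difference between the responses was -1.77 ± 0.17, edgeR adjusted p = 1.5e-07, and it remained called in every fit that left out 1 library and in every other alternative. In WT, Kdr was the 1 of 5 endothelial markers that exceeded 1 CPM, and the summed level of these markers was 0.878 to 1.39 CPM with DMSO and 4.48 to 8.68 CPM with MK-8722. The leukocyte list, in which Cd68 was the 1 of 6 genes above 1 CPM, summed to 1.98 to 2.85 CPM with DMSO and 3.14 to 4.67 CPM with MK-8722 in WT. The part of either list in the result was not tested.

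Slc2a1 was at 140, 119, 134 and 130 CPM in WT with MK-8722 (log2 fold change against DMSO 0.32 ± 0.075, edgeR adjusted p = 0.0022) and at 115, 112, 126 and 112 CPM in AMPK KO (log2 fold change 0.30 ± 0.075, edgeR adjusted p = 0.033). In each genotype these libraries lay above those with DMSO. The call in AMPK KO was lost in 7 of 8 fits without 1 library, with an adjusted p of up to 0.12 without MK-8722 replicate 3. Hk2 was at 106, 123, 106 and 104 CPM in WT with MK-8722 (log2 fold change 0.55 ± 0.10, edgeR adjusted p = 0.00022) and at 93.6, 74.5, 86.7 and 96.7 CPM in AMPK KO (log2 fold change 0.66 ± 0.10, edgeR adjusted p = 0.00096), above the DMSO libraries in both. The responses of the 2 genotypes differed by -0.25 to 0.20 for Slc2a1 and by -0.19 to 0.41 for Hk2 on the log2 scale (95% intervals). The share of Hk2 in hexokinase TPM was 36.5% ± 2.78 in WT and 31.3% ± 1.37 in AMPK KO with MK-8722 (SD, n = 4 each), above the shares with DMSO given before.

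Pdk4 was at 2.61, 1.72, 2.0 and 2.03 CPM in WT with MK-8722 (log2 fold change -0.52 ± 0.14, edgeR adjusted p = 0.006). It was at 9.39, 7.73, 10.3 and 9.21 CPM in AMPK KO (log2 fold change -0.42 ± 0.10, edgeR adjusted p = 0.026). MK-8722 and DMSO libraries overlapped in both genotypes. In AMPK KO the call was lost in 6 of 8 fits without 1 library (adjusted p up to 0.086 without DMSO replicate 1). The torin1 and MK-8722 comparisons share their DMSO libraries. In WT, Pdk4 had a log2 fold change of -0.52 with MK-8722 and 1.64 with torin1, and Slc2a1 of 0.32 and -1.12. For Hk2 these values were 0.55 and -0.98, and for Eno2 they were 1.92 and 1.08.

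Further genes were called in WT alone. Slc2a3 was at 2.38, 2.27, 2.47 and 2.56 CPM with MK-8722 and 1.93, 1.72, 1.62 and 1.29 CPM with DMSO (log2 fold change 0.56 ± 0.18, edgeR adjusted p = 0.021), and the call was lost without DMSO replicate 3 or 4 or MK-8722 replicate 4 (adjusted p 0.05, 0.079 and 0.056). Slc16a1 rose by 0.30 and Hif1a by 0.28 on the log2 scale (edgeR adjusted p = 0.00022 and 0.00016). Both lie close to the fold threshold, and the call was lost without WT DMSO replicate 2 for Slc16a1 (0.25 on the log2 scale) and in 4 of 8 fits for Hif1a (0.25 to 0.26). The responses of Slc16a1 and Hif1a were not shown to differ between the genotypes (-0.13 and -0.17, edgeR adjusted p = 0.3 and 0.11). Pfkfb2 rose by 0.43 (edgeR adjusted p = 0.0021) in WT.

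In AMPK KO, Vegfa was the 1 gene called that was not called in WT. It was at 113, 118, 98.3 and 120 CPM with MK-8722 and 69.7, 68.6, 73.8 and 80.9 CPM with DMSO, with no overlap (log2 fold change 0.62 ± 0.13, edgeR adjusted p = 0.0094). In WT it was at 70.04, 93.6, 60.8 and 60.6 CPM with MK-8722 and 59.4, 59.1, 57.0 and 79.3 CPM with DMSO, groups that overlapped and had 1 high library each (log2 fold change 0.16, edgeR adjusted p = 0.39). Both high libraries were of passage 12. The difference between the responses did not pass the test (0.46, edgeR adjusted p = 0.084), and it did without WT MK-8722 replicate 2 (adjusted p 0.0072). It was also called in a fit with a block by passage, as given below.

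The response to MK-8722 differed between the genotypes for 5 of the 34 genes, all lower in AMPK KO, where 12.8% of all genes tested were called, 5.12% higher and 7.66% lower. Beside Eno2, these were Slc2a3 (difference -0.81 ± 0.24, edgeR adjusted p = 0.024), Pdk1 (-0.67 ± 0.21, edgeR adjusted p = 0.033), Pfkm (-0.39 ± 0.12, edgeR adjusted p = 0.032) and Pfkfb2 (-0.44 ± 0.14, edgeR adjusted p = 0.029). Pdk1 was at 19.0, 18.4, 23.1 and 22.4 CPM in WT and 3.53, 5.75, 3.29 and 4.86 CPM in AMPK KO with MK-8722, and Pfkm at 43.9, 37.6, 49.6 and 45.1 CPM in WT and 87.9, 75.3, 81.5 and 84.9 CPM in AMPK KO, while neither was called against DMSO in either genotype. Without WT MK-8722 replicate 2, both were called in WT (0.40 for Pdk1 and 0.27 for Pfkm, adjusted p 0.042 and 0.023). With a block by passage, Pdk1 was called in both genotypes. Leaving out 1 library removed the call in 3 of 16 fits for Slc2a3 (adjusted p up to 0.059 without AMPK KO DMSO replicate 3) and in 8 of 16 for Pfkm (up to 0.082 without WT MK-8722 replicate 3). It did so in 6 of 16 for Pfkfb2 (up to 0.072 without AMPK KO DMSO replicate 3) and in 8 of 16 for Pdk1 (up to 0.09 without AMPK KO MK-8722 replicate 1). With an offset for transcript length, Eno2 alone was called.

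AMPK KO and WT were compared with DMSO, which addresses the state of the route without either compound. Called changes of 1 or more on the log2 scale were those of Pfkm, Pfkp, Pfkfb4, Slc2a3, Pdk4 and Egln3, which were higher in AMPK KO, and of Ldhb and Pdk1, which were lower. Of the 34 genes, 13 were higher and 10 lower, where 56.9% of all genes tested were called, 30.9% higher and 26% lower (67.4% of the called genes higher with scaling by library size alone). With scaling by library size alone the split was 14 higher and 6 lower, as Pfkl, Pfkfb1, Tpi1 and Slc16a1 were no longer called (-0.24 to -0.14 on the log2 scale) and Vegfa was (0.34). The median log2 fold change of the 34 genes was -0.02, beside 0.02 over all genes tested. WT and AMPK KO differed also in passage, in Xist and in the summed fibroblast markers given above, whose part in these differences cannot be told apart from that of AMPK.

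Of the 8 genes listed with the phosphofructokinase step, Gpi1 included, 5 were higher in AMPK KO and 2 lower. Pfkm was at 41.8, 35.9, 42.2 and 33.0 CPM in WT and 100, 88.1, 88.8 and 97.3 CPM in AMPK KO (log2 fold change 1.29 ± 0.088, edgeR adjusted p = 4.1e-12). Pfkp was at 40.6, 44.4, 40.0 and 54.2 CPM in WT and 95.02, 93.2, 94.1 and 96.4 CPM in AMPK KO (log2 fold change 1.08 ± 0.072, edgeR adjusted p = 3.1e-12), and Pfkl was lower in AMPK KO by 0.33 on the log2 scale. Pfkfb4 was at 6.6, 5.41, 6.02 and 5.84 CPM in WT and 15.0, 15.9, 16.5 and 14.6 CPM in AMPK KO (log2 fold change 1.38 ± 0.10, edgeR adjusted p = 1.1e-11), and it made up 17.9% ± 3.66 and 37.1% ± 0.715 of the TPM of the 4 PFKFB genes (SD, n = 4 each). Gpi1 was at 379, 351, 375 and 362 CPM in WT and 606, 597, 556 and 588 CPM in AMPK KO (log2 fold change 0.68 ± 0.039, edgeR adjusted p = 2e-13). None of these groups overlapped, Pfkl included.

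In the main line from aldolase to lactate, Aldoa, Gapdh, Pgk1 and Eno1 had log2 fold changes between -0.08 and 0.04 and were not called, Pkm was lower by 0.61 (edgeR adjusted p = 9.1e-09), and Pgam1 higher by 0.39 (edgeR adjusted p = 2.9e-05). Tpi1 was lower by 0.30, which fell below the fold threshold without AMPK KO DMSO replicate 3 (-0.25). Eno2 was at 6.99, 7.46, 6.09 and 6.34 CPM in WT and 10.7, 10.4, 12.8 and 11.4 CPM in AMPK KO (log2 fold change 0.75 ± 0.12, edgeR adjusted p = 1e-05), so its level in AMPK KO with DMSO lay between those of WT with DMSO and WT with torin1. Ldhb was at 9.97, 11.1, 8.72 and 7.38 CPM in WT and 4.19, 3.37, 3.72 and 3.84 CPM in AMPK KO (log2 fold change -1.30 ± 0.17, edgeR adjusted p = 3.3e-07), while Ldha had a log2 fold change of -0.24, below the fold threshold, and was called without WT DMSO replicate 2 or AMPK KO DMSO replicate 1 (-0.34 and -0.28). Slc16a1 was lower by 0.28, a call lost without WT DMSO replicate 4 or AMPK KO DMSO replicate 3 (-0.23 and -0.26 on the log2 scale), and Slc16a3 higher by 0.48 (edgeR adjusted p = 0.0039).

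Slc2a3 was at 1.93, 1.72, 1.62 and 1.29 CPM in WT and 3.56, 2.88, 4.45 and 3.18 CPM in AMPK KO (log2 fold change 1.11 ± 0.17, edgeR adjusted p = 5e-06), and Hk2 was lower by 0.43 (edgeR adjusted p = 0.00063). Pdk4 was at 3.37, 3.18, 2.85 and 2.61 CPM in WT and 12.9, 13.4, 12.8 and 9.93 CPM in AMPK KO (log2 fold change 2.03 ± 0.11, edgeR adjusted p = 1.1e-13), the largest difference of the 34 genes between the genotypes. Pdk1 was at 17.9, 13.6, 17.6 and 16.3 CPM in WT and 6.02, 4.01, 6.1 and 5.67 CPM in AMPK KO (log2 fold change -1.58 ± 0.15, edgeR adjusted p = 1.4e-09). Egln3 was at 6.88, 6.8, 6.2 and 4.43 CPM in WT and 12.5, 14.7, 11.2 and 12.8 CPM in AMPK KO (log2 fold change 1.08 ± 0.17, edgeR adjusted p = 7.3e-06), and Egln1 was lower by 0.42 (edgeR adjusted p = 1.6e-09). Neither Hif1a nor Vegfa was called (log2 fold changes -0.16 and 0.20), though Vegfa was without WT DMSO replicate 4 (adjusted p 0.034). Of the 4 genes on the X chromosome, Pdha1 and Pfkfb1 were lower in AMPK KO by 0.53 and 0.38, and Pgk1 and Pdk3 had log2 fold changes of -0.08 and -0.09 and were not called.

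Pkm makes 2 enzymes by choice of 1 of a pair of exons of 167 bases on chromosome 9 (GRCm38), one at 59675029 to 59675195, used in the M1 form of differentiated tissue, and one at 59675568 to 59675734, used in the M2 form of proliferating cells. Each form was represented by 1 transcript in the annotation. The M1 transcript held 26.8% ± 1.7 of their summed TPM in WT with DMSO, 26.6% ± 1.72 with MK-8722 and 23.3% ± 1.37 with torin1 (SD, n = 4 each). In AMPK KO the shares were 23% ± 2.73, 23% ± 1.27 and 23.3% ± 1.51 (SD, n = 4 each). The difference of -3.42 percentage points with torin1 in WT had an exact two-sided permutation p = 0.0286, the smallest that 4 against 4 libraries allow, and 0.14 after adjustment over 5 comparisons. A single difference could not fall below this adjusted value with 4 against 4 libraries, so the design could not call one alone. These shares are estimates from short reads assigned to transcripts, of which only those that touch the paired exons tell the forms apart.

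Beyond the 34 genes, 63 of 82 genes of related lists had enough counts to be tested. They cover other isoenzymes and transporters, the pyruvate dehydrogenase complex and pyruvate carrier, the pentose phosphate pathway, gluconeogenesis and glycogen, hypoxia targets outside glycolysis, and regulators of glycolytic genes. With torin1, 12 were higher and 26 lower in WT, and 15 higher and 22 lower in AMPK KO, which is 60.3% and 58.7% called beside 47.6% and 43.5% of all genes tested. The pentose phosphate genes had 6 of 9 lower and 1 higher in WT and 5 lower in AMPK KO. Slc2a8, an intracellular glucose transporter, rose by 1.11 and 1.13 on the log2 scale, and Pdpr, a subunit of the phosphatase that reactivates pyruvate dehydrogenase, by 1.04 and 1.05. Pck2, the mitochondrial phosphoenolpyruvate carboxykinase, fell by 1.33 and 1.58, and Higd1a, a hypoxia-induced mitochondrial protein, by 1.46 and 1.09 (largest edgeR adjusted p of the 4 genes = 5.2e-07). The hypoxia list that holds Higd1a went both ways, with 4 of 18 genes higher and 5 lower in WT and 4 higher and 6 lower in AMPK KO. Ndrg1, a hypoxia-induced gene named here after its values were seen, rose by 1.02 and 0.95 (edgeR adjusted p = 3.4e-06 and 7.2e-06).

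With MK-8722, 8 of the 63 genes were higher and 3 lower in WT, and 1 was higher and 1 lower in AMPK KO, which is 17.5% and 3.17% called beside 15.7% and 1.56% of all genes tested. Among genes whose overall mean reached 5 CPM, the largest rises in WT were those of Ndrg1 (1.24 ± 0.15, edgeR adjusted p = 1.4e-06) and Slc2a8 (0.62 ± 0.10, edgeR adjusted p = 7e-05), and the largest falls those of Epas1, which encodes HIF2A (-0.66 ± 0.21, edgeR adjusted p = 0.019), and Pgd, of the pentose phosphate pathway (-0.34 ± 0.066, edgeR adjusted p = 0.00037). Epas1 met that minimum through AMPK KO and was low in WT, at 2.51 ± 0.778 CPM with DMSO and 1.58 ± 0.277 CPM with MK-8722 (SD, n = 4 each). In AMPK KO, Gys1, which encodes glycogen synthase, rose (0.46 ± 0.10, edgeR adjusted p = 0.016). In the difference between these responses, 5 of the 63 genes were higher in AMPK KO and 8 lower, which is 20.6% called beside 12.8% of all genes tested. Of the 18 hypoxia genes, 1 was higher and 3 lower. The responses of Ndrg1 and Bnip3, a mitophagy receptor induced by HIF1A, were lower in AMPK KO than in WT by 1.26 and 0.79 (edgeR adjusted p = 0.00021 and 0.0037). Those of Pck2 and Gys1 were higher by 0.73 and 0.50 (edgeR adjusted p = 0.039 and 0.021). Between the genotypes with DMSO, 16 of the 63 genes were higher in AMPK KO and 27 lower, which is 68.3% called beside 56.9% of all genes tested. Epas1 and Slc2a6, a lysosomal transporter, were higher by 2.19 and 2.00, and Myc and Emb, a partner of monocarboxylate transporters, were lower by 1.29 and 1.23 (largest edgeR adjusted p = 4.4e-08). Epas1 and Slc2a6 were below 5 CPM in WT with DMSO (2.51 and 3.82 CPM) and Emb in AMPK KO (4.02 CPM), so they met the minimum for being named through the group in which they were higher.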

How the data were processed

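Poly(A) mRNA of 24 MEF libraries was sequenced, and the authors ran nf-core/rnaseq, with reads aligned by STAR to GRCm38 and quantified by Salmon with Ensembl genes. The deposited gene table holds Salmon estimated counts, not whole numbers, which were rounded here. The authors' Salmon files also hold TPM per transcript, which are relative to all transcripts of a library. They were summed per gene to compare genes and families, and the estimates split reads between similar transcripts, as for Eno1 and Eno1b. Aldoa had a second row of few counts, which was not used. Libraries were grouped by their labels.

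Genes passing the filterByExpr function of edgeR 4.0.16 (R 4.3.3) were fitted over all 24 libraries with 6 group means, TMM factors and the quasi-likelihood test, two-sided, with Benjamini-Hochberg adjustment over 15828 genes in each of 7 comparisons. Intervals of 95% used the SE and 18 residual degrees of freedom. The scripts were checked on simulated counts. The alternatives comprised other scalings (DESeq2 1.42.0 size factors, library size alone), filters, an offset for transcript length, DESeq2's test, blocks by passage or replicate number, and leaving out each library. Others were the compared groups fitted alone, and thresholds of adjusted p alone or a fold change of 1.5. Libraries of the same passage or replicate number were not taken as paired. The median r of their deviations was 0.129 over 24 pairs for passage (lowest -0.011) and 0.011 for replicate number (lowest -0.196). The main fit thus leaves in any spread that libraries of the same passage share, and some genes it did not call were called with a block by passage. The study's methods name a batch-effect removal with limma, which was not applied here. The block by passage called at least as many members as the main fit in each comparison in which it could be fitted, as given below. Genes named beyond the 34 were the largest called changes of the related lists at 5 CPM or more, and among the 34 those past 1 on the log2 scale and the most abundant of each step got values for every library. The 34 genes and all lists were chosen with earlier results of these data known.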

Additional observations from a re-analysis of the deposited data

Results flagged for a closer look

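In 9 of 210 sets of 4 libraries (4.29%, where chance gives about 1 in 20), 1 library lay far from the others. In WT with DMSO, replicate 2 was lowest for Gapdh (2691 CPM, others 2971 to 2990) and Eno1 (1177 CPM, others 1353 to 1367), and replicate 4 was highest for Vegfa (79.3 CPM, others 57 to 59.4) and Pfkfb3 (17.1 CPM, others 14.8 to 15.1). In WT with MK-8722, replicate 2 was highest for Hk2 (123 CPM, others 104 to 106) and lowest for Pfkfb4 (5.63 CPM, others 7.18 to 7.5). In AMPK KO with MK-8722, replicate 2 was lowest for Pfkl (152 CPM, others 163 to 164), Tpi1 (411 CPM, others 465 to 466) and Pgam1 (801 CPM, others 877 to 892). WT DMSO replicate 4 and WT MK-8722 replicate 2 were both of passage 12, the earliest in WT. AMPK KO MK-8722 replicate 2 was of passage 16, the earliest in AMPK KO. The chance rate takes the sets as unrelated, which sets that share a library or a passage need not be. The part of passage in these flags was not tested.

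The response to a compound differed between the genotypes, by edgeR's test of the difference in log2 fold changes (AMPK KO minus WT), for 11 pairs of gene and compound. With MK-8722 the difference was -1.77 for Eno2 (edgeR adjusted p = 1.5e-07), -0.81 for Slc2a3 (0.024), -0.67 for Pdk1 (0.033), -0.44 for Pfkfb2 (0.029) and -0.39 for Pfkm (0.032). With torin1 it was 0.40 for Slc2a1 (edgeR adjusted p = 0.022), 0.27 for Egln1 (0.0034), -0.28 for Hk1 (0.024), -0.35 for Pfkp (0.029), -0.53 for Pdk4 (0.025) and -0.58 for Eno2 (0.031). Genotype cannot be told apart from passage in these differences.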

How the results depend on the processing

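No called change of a member reversed its sign in 5032 values under the alternatives, while 224 sign changes occurred where neither value was called. Adjusted p alone and a minimum fold change of 1.5 repeat the values of the main fit, which could not change sign there. Beside the main analysis, 2455 values stayed on the same side of the threshold under the other alternatives, 92 lost the call and 37 gained it. The 1.5-fold minimum could only lose calls, and adjusted p alone could only gain them. Of the lost calls, 7, 2, 12, 15, 10, 2 and 6 came from the 1.5-fold minimum, in the order given below for the block by replicate number. When 1 library was left out, 2333 stayed, 87 lost the call and 28 gained it. A minimum fold change of 1.5 left 1 member called with MK-8722 in WT, 2 in AMPK KO, 14 and 11 with torin1 in WT and AMPK KO, 13 between the genotypes, and 3 and 0 for the differences in response to MK-8722 and torin1. An offset for transcript length left 2 members called with MK-8722 in AMPK KO and 1 for the difference in that response. Leaving out 1 library gave 2 to 4 members with MK-8722 in AMPK KO, where the main count was 4. The lowest came without AMPK KO DMSO replicate 1, 2 or 3 and without AMPK KO MK-8722 replicate 1 or 4. Leaving out 1 library gave 2 to 9 for the difference in response to MK-8722 (main 5, highest without WT MK-8722 replicate 2). Here the lowest came without AMPK KO DMSO replicate 3 and without AMPK KO MK-8722 replicate 1 or 3. For the difference in response to torin1 it gave 3 to 7 (main 6, highest without WT torin1 replicate 4). The lowest of these came without WT DMSO replicate 4 and without AMPK KO DMSO replicate 1. With scaling by library size alone, all genes together had a median log2 fold change of 0.14 and 0.12 with torin1 in WT and AMPK KO and of 0.16 between the genotypes, and the calls were 9 higher and 14 lower, 6 and 18, and 14 and 6 members in them. A replicate block by passage called 9 and 5 members with MK-8722 in WT and AMPK KO, 28 and 26 with torin1, and 8 for each difference in response, and could not be fitted between the genotypes, which share no passage. It lost no member's call and added Pdk1 with MK-8722 in WT and AMPK KO (edgeR adjusted p = 0.00054 and 0.027), Slc2a3 and Egln3 with torin1 in WT (0.011 and 0.05), Pfkfb3, Slc16a3 and Vegfa for the difference in response to MK-8722 (0.01, 0.0083 and 0.0002), and Pfkm and Pdk1 for that to torin1 (0.0001 and 0.0066). Over all genes it called 729 with MK-8722 in AMPK KO (main 247) and 1861 for the difference in response to torin1 (main 1119). With MK-8722 in AMPK KO, 138 genes were called with the offset for length and 423 by adjusted p alone, which called 4447 in WT (main 2483). A minimum fold change of 1.5 left 833, 64, 3855, 3146, 5541, 681 and 305 genes, in the order of the next sentence. The replicate block by replicate number called 8, 4, 25, 26, 23, 5 and 7 members, in the order MK-8722 in WT and AMPK KO, torin1 in WT and AMPK KO, AMPK KO against WT, and the differences in response to MK-8722 and torin1. Where calls changed with a scaling or a left-out library, the cause was not tested. Low counts limit Slc2a3, Aldoc and Pdk4, and RNA levels say nothing of flux, protein or lactate.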

Other observations

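Annotated genes that share sequence with a member took up some of the counts. Over all libraries, those resembling Eno1 held 74.1% as many counts as Eno1 itself, most of them in Eno1b. For the other members the shares were smaller, at 7.40% for Pgk1, 4.94% for Gapdh with 99 such genes, 2.98% for Pgam1 and 2.93% for Gpi1.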
